A study of Mus musculus with 6 samples.

Results

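The 10 genes described here encode transcription factors that direct myeloid differentiation: Spi1, Cebpa, Cebpb, Cebpd, Cebpe, Irf8, Gfi1, Runx1, Id2 and Satb1. They were taken by name from a count table of 54838 mouse genes, and all 10 were among the 11092 genes with enough counts to be tested. The choice was made with the AG636 against vehicle contrast in view, and Satb1 was added because its increase was among the largest. The differences between the groups in these 10 genes are therefore given as a description, and no result is read from a test of them.

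The libraries came from the I1DN model, a mouse acute myeloid leukemia (AML) on a C57BL/6 background that carries IDH1R132H, DNMT3AR882H and NrasG12D, made by introducing the mutant constructs into stem and progenitor cells of fetal liver. Leukemia cells were engrafted into Ptprca mice conditioned with sub-lethal irradiation, and the hosts received vehicle or AG636, an inhibitor of dihydroorotate dehydrogenase (DHODH), the enzyme of pyrimidine synthesis that acts at the mitochondrion, at 100 mg/kg by gavage, b.i.d. There were 3 mice per group and 1 library per mouse, both groups carried all the mutant alleles, and the recipients were engrafted with cells banked from a moribund mouse, so the replicates are recipients of 1 leukemia rather than separate leukemias. The study sorted immature cells, high in or positive for cKit and low in or negative for CD11b, from bone marrow and spleen; the labels do not say which organ gave which library, and the study gives the length of treatment in more than one way. The question of the contrast was how the transcriptome of these cells differed under the inhibitor.

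PU.1, the product of Spi1, together with the C/EBP proteins opens and activates the enhancers of granulocyte and monocyte genes. C/EBPα acts at the entry to the granulocyte-monocyte pathway and C/EBPε in the later formation of granules. IRF8 favors monocytes and dendritic cells, whereas the repressor GFI1 favors neutrophils. RUNX1 is needed to establish blood stem cells and is often disrupted in AML; ID2 sequesters E proteins, and SATB1 is a chromatin organizer best known from T cells and also present in blood stem cells.

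Promoter sequences were available for 7 of the 10 genes, with 14 starts in all, in the RefSeq table for GRCm38.p6; Spi1, Cebpd and Cebpe had no entry. The 250 bases before a start are shown for 4 of them, to let a reader see what a core promoter of this group looks like: Satb1 as the gene with the largest difference, Runx1 and Irf8 as genes that differed from each other in their pattern over the mice, and Cebpa as the entry factor. They are written 5′ to 3′ on the strand of the gene and capitals mark motif matches on either strand. The windows are chr17:51833291-51833540 (minus strand), chr7:35119043-35119292 (plus strand), chr8:120736108-120736357 (plus strand) and chr16:92697330-92697579 (minus strand).
Satb1, start 1 of 5: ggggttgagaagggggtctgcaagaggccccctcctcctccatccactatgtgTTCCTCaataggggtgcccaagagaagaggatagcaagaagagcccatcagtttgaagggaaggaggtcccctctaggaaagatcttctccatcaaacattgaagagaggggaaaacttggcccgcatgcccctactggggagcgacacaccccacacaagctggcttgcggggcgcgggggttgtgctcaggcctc
Cebpa, start 1 of 1: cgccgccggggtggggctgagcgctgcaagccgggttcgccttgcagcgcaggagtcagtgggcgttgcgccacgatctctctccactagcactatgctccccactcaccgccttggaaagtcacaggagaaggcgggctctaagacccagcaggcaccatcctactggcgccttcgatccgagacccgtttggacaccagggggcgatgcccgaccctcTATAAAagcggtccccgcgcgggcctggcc
Irf8, start 1 of 2: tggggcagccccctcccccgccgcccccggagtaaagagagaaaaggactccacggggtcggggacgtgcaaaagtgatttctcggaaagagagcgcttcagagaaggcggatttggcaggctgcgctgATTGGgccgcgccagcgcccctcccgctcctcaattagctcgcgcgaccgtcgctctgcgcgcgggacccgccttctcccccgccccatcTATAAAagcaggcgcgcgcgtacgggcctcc
Runx1, start 2 of 2: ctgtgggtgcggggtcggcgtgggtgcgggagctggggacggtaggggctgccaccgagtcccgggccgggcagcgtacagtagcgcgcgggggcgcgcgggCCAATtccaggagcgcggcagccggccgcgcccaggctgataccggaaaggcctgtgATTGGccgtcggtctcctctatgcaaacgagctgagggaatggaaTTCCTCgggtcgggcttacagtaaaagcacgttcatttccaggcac

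The motifs searched were those of the factors themselves, TTGCNNAA for C/EBP, GAGGAA for PU.1, TGTGGT for RUNX, a pair of GAAA with 2 bases between for IRF, and AATCACNGC for GFI1, with the CCAAT and TATAAA boxes; the PU.1 and IRF motifs can overlap where they share GAA. Cebpa held a TATAAA 30 bases before its start and Irf8 held one 31 bases before it, and 12.4% of 32851 mouse promoter windows of this length hold one. The Satb1 window held a PU.1 match at 197 bases before the start and the Runx1 window one at 46 bases, a motif found in 23.3% of all windows. The Runx1 window also held 2 CCAAT boxes and the Irf8 window 1, and 33.8% of all windows have one. Of the other windows, Gfi1 start 1 held a C/EBP match, a motif in 9.56% of windows, Id2 held 3 CCAAT boxes and Runx1 start 1 held 2. Satb1 starts 4 and 5, whose windows overlap each other and annotated Satb1 exons, held a GFI1 match, a motif in 0.776% of windows, and 2 and 1 PU.1 matches. No RUNX or IRF match lay in any of the 14 windows, which says only that these letters are absent there; such matches occur in 14% and 2.98% of all windows. The windows of Id2, Gfi1 start 1 and Runx1 start 1 overlap annotated exons and are not printed. In Runx1 start 1 the 75 bases nearest the start are annotated Runx1 exon, and both CCAAT matches lie in them. The printed Satb1 window overlaps an exon of Gm6934, a gene on the opposite strand listed at 0 counts in every library. The median GC content of the 14 windows was 58.6%, against 52.4% over all windows.

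The 6 libraries held 4634963 to 7906589 counts in genes, and 3 counts correspond to 0.391 to 0.635 when counts are scaled to CPM, counts per 1000000 counts of the library. The 10 genes had between 26 and 1205 counts in a library, so their values were well above that level. In the fit across all genes, 1129 genes were higher and 1231 lower under AG636 (edgeR quasi-likelihood test, Benjamini-Hochberg adjusted p under 0.05), 21.3% of those tested. The first principal component held 58.6% of the variance and separated the groups. On it Vehicle replicate 1 lay farthest out on the vehicle side, and AG636 replicate 2 was nearest to the vehicle mice among the treated libraries. On the second component AG636 replicate 2 stood apart, at 34.6 against -15.1 to 8.87 in the other 5 libraries. Vehicle replicate 1 had the highest summed erythroid markers, 5080 CPM against 1880 to 3530 CPM in the other 5 libraries. AG636 replicate 2 had the highest summed dendritic cell markers, 278 CPM against 51.0 to 122 CPM, of which the MHC class II genes H2-Aa and H2-Ab1 made up 245 CPM; the rest of the list summed to 33.9 CPM there, against 36.0 to 65.0 CPM in vehicle. The values of the 10 genes are therefore also given without these libraries. All RNA came from pools of sorted cells, in which fewer cells of a type and less RNA per cell cannot be told apart.

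All 10 genes had a positive estimated difference, AG636 over vehicle, between 0.15 and 2.30 on the log2 scale, with a median of 0.66 against 0.03 over all genes tested, of which 52.3% had a positive difference; Cebpb turned slightly negative when Vehicle replicate 1 (-0.02) or AG636 replicate 1 (-0.03) was left out. In the fit 2 of the 10, Id2 and Satb1, passed the threshold, beside 21.3% of all genes tested in either direction and 10.2% as higher. In 3, Spi1, Id2 and Satb1, every treated mouse was above every vehicle mouse, beside 41.1% of genes whose groups did not overlap in either direction, 20.4% with AG636 higher and 20.7% with AG636 lower. Nothing is read from these counts, because the genes were chosen on this contrast.

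**Figure D1:**
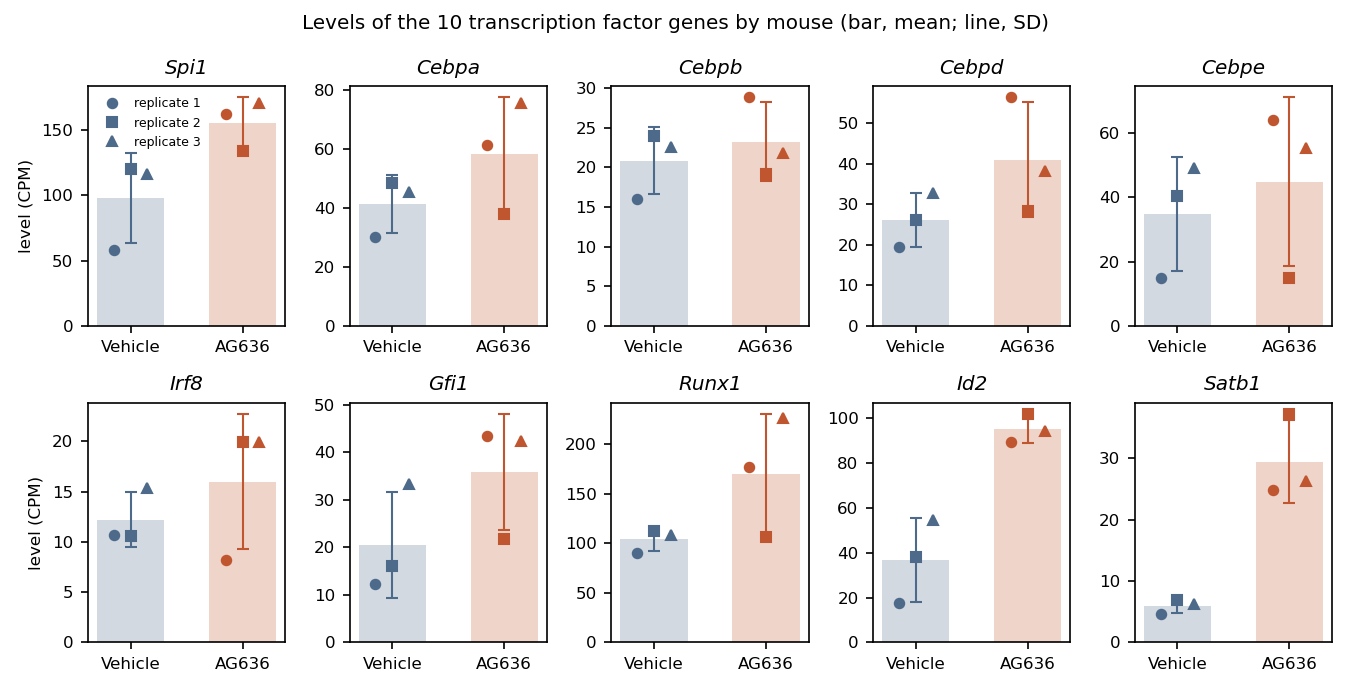
Level of each of the 10 genes, in CPM (vertical axes, each from 0), in the 3 vehicle and 3 AG636 mice; points are mice, bars the group mean and lines the SD. The groups are apart for Spi1, Id2 and Satb1 and overlap for the other 7 genes, where Vehicle replicate 1 or AG636 replicate 2 is usually the low point.

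Spi1, which encodes PU.1, lies at chr2:91082390-91115756 on the plus strand (mm10). Its level was 57.8, 120 and 116 CPM in the vehicle mice and 162, 134 and 171 CPM in the AG636 mice. Every treated mouse was above every vehicle mouse, although AG636 replicate 2 was only slightly above the upper vehicle values. The means were 97.9 ± 34.8 CPM and 156 ± 18.9 CPM (SD, n = 3 each), a log2 fold change of 0.67 with a standard error of 0.25. Without Vehicle replicate 1, the low vehicle library, the log2 fold change was 0.38, and without AG636 replicate 2 it was 0.76.

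Among the C/EBP genes, Cebpa (chr7:35119293-35121928, plus strand, without introns) measured 30.0, 48.5 and 45.2 CPM in the vehicle mice and 61.4, 37.8 and 75.6 CPM under AG636. AG636 replicates 1 and 3 were above all vehicle mice, and AG636 replicate 2 lay inside the vehicle range. The log2 fold change of Cebpa was 0.50 (standard error 0.26), and it was 0.73 without AG636 replicate 2, 0.30 without Vehicle replicate 1 and 0.26 without AG636 replicate 3.

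Cebpe, the C/EBP of late granule formation (chr14:54710360-54712174, minus strand), varied widely between mice of a group, with a coefficient of variation of 51.3% in vehicle and 58.5% under AG636. Its level was 14.8, 40.4 and 49.0 CPM in the vehicle mice and 64.1, 15 and 55.3 CPM under AG636. The lowest vehicle and the lowest treated mouse had nearly the same level, and the other 2 treated mice were above all vehicle mice. The log2 fold change of 0.37 had a standard error of 0.63, and it ranged from 0.00 without Vehicle replicate 1 to 0.78 without AG636 replicate 2. The ratio of Cebpe to Cebpa counts was 0.491, 0.833 and 1.08 in the vehicle mice and 1.04, 0.397 and 0.731 in the treated mice, so that the same 2 libraries were low also relative to Cebpa.

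Cebpd, which is inducible by cytokines (chr16:15887286-15891031, plus strand, without introns), measured 19.4, 26.2 and 32.7 CPM in vehicle and 56.3, 28.3 and 38.2 CPM under AG636. Only AG636 replicate 2 lay inside the vehicle range, and the log2 fold change was 0.65 with a standard error of 0.27. It was 0.47 when Vehicle replicate 1 was left out, 0.86 without AG636 replicate 2 and 0.35 without AG636 replicate 1. Cebpb, linked to emergency granulopoiesis and macrophage genes (chr2:167688915-167690418, plus strand, without introns), measured 16.0, 24.0 and 22.5 CPM in vehicle and 28.8, 19.1 and 21.8 CPM under AG636. The Cebpb groups overlapped almost fully, and its log2 fold change of 0.15 was smaller than its standard error of 0.22; it was -0.02 when Vehicle replicate 1 was left out and 0.27 without AG636 replicate 2. Both genes share exon sequence with a gene on the other strand, Cebpd with Spidr (694 counts in the 6 libraries, against 1074 for Cebpd) and Cebpb with Tmem189 (1152 counts, against 727 for Cebpb). The strand setting of the counting is not given in the sources used here, so how reads in the shared stretch were assigned is unknown.

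Irf8 (chr8:120736358-120756694, plus strand) followed another order of mice than the other 9 genes. Its level was 10.7, 10.6 and 15.4 CPM in vehicle and 8.25, 19.9 and 19.9 CPM under AG636. AG636 replicate 1 had the lowest value of all 6 mice, while AG636 replicates 2 and 3 were the highest. The log2 fold change was 0.41 with a standard error of 0.33. It was 0.71 without AG636 replicate 1, 0.23 without AG636 replicate 2, 0.22 without AG636 replicate 3, 0.31 without Vehicle replicate 1 and 0.15 with Vehicle replicate 1 and AG636 replicate 2 both left out. The class II genes H2-Aa and H2-Ab1 summed to 21.2 CPM in AG636 replicate 1, 245 CPM in AG636 replicate 2 and 40.1 CPM in AG636 replicate 3, so that replicates 2 and 3, with the same Irf8 level, differed widely in them. The other dendritic cell markers together were at 29.9, 33.9 and 20.9 CPM in these mice, and their part in the Irf8 values was not tested.

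Gfi1 (chr5:107716657-107726036, minus strand) measured 12.3, 16.0 and 33.3 CPM in vehicle and 43.4, 21.8 and 42.5 CPM under AG636. AG636 replicates 1 and 3 were above all vehicle mice, and AG636 replicate 2 was below Vehicle replicate 3. The log2 fold change was 0.82 with a standard error of 0.40, and leaving out 1 mouse moved it between 0.55, without Vehicle replicate 1, and 1.31, without Vehicle replicate 3; it was 1.08 without AG636 replicate 2. The ratio of Gfi1 to Irf8 counts, of interest because the factors favor neutrophils and monocytes respectively, was 1.15, 1.52 and 2.16 in vehicle and 5.26, 1.09 and 2.13 under AG636. The treated mice included both the highest and the lowest ratio. An opposite-strand gene that overlaps Gfi1 exons, A430072P03Rik, had 33 counts in all against 889 for Gfi1.

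Runx1 (chr16:92601466-92826149, minus strand) measured 90.7, 113 and 109 CPM in vehicle and 177, 106 and 227 CPM under AG636. The vehicle mice lay close together, AG636 replicates 1 and 3 were well above them, and AG636 replicate 2 was inside their range. The log2 fold change was 0.71 with a standard error of 0.24. It was 0.96 without AG636 replicate 2, 0.61 without Vehicle replicate 1 and 0.45 without AG636 replicate 3, the mouse with the highest level.

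Id2, the inhibitor of E proteins (chr12:25093799-25097140, minus strand), measured 17.6, 38.1 and 54.8 CPM in the vehicle mice and 89.5, 102 and 94.6 CPM in the AG636 mice. The 3 treated mice were alike (mean 95.5 ± 6.52 CPM, SD, n = 3) and all above the vehicle mice, which spread widely (36.8 ± 18.6 CPM). The mean was 2.59 times as high under AG636, and the log2 fold change was 1.38 with a standard error of 0.34. It was 1.04 without Vehicle replicate 1 and 1.33 without AG636 replicate 2.

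Satb1 (chr17:51736187-51833290, minus strand) had the largest difference of the 10 genes. Its level was 4.62, 6.91 and 6.25 CPM in the vehicle mice, from 26 to 53 counts, and 24.8, 37.2 and 26.3 CPM in the AG636 mice, from 117 to 181 counts. The lowest treated mouse was well above the highest vehicle mouse. The means were 5.93 ± 1.18 CPM and 29.4 ± 6.76 CPM (SD, n = 3 each), a ratio of 4.96, and the log2 fold change of 2.30 (standard error 0.25) was the 23rd largest increase among the 11092 genes tested. It was 2.13 without Vehicle replicate 1, 2.09 without AG636 replicate 2 and 1.94 with both left out. Because Satb1 is abundant in T cells, a list of 13 T cell markers was read beside it. All 13 had some count, their summed level was 12.1 to 21.0 CPM in vehicle and 13.3 to 17.4 CPM under AG636, and the defining markers Cd3e, Cd3g and Cd4 were each at or under 0.616 CPM in every library. Cd3d reached 2.44 CPM and Trac 3.39 CPM, with overlapping groups, and Cd28 was at 0.356 to 0.522 CPM in vehicle and 0.821 to 2.33 CPM under AG636, higher in every treated mouse; these had too few counts to be tested. Of the 2 T cell markers with enough counts to test, Lck and Ptcra, neither was called, with log2 fold changes of -0.07 and -0.83.

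**Figure D2:**
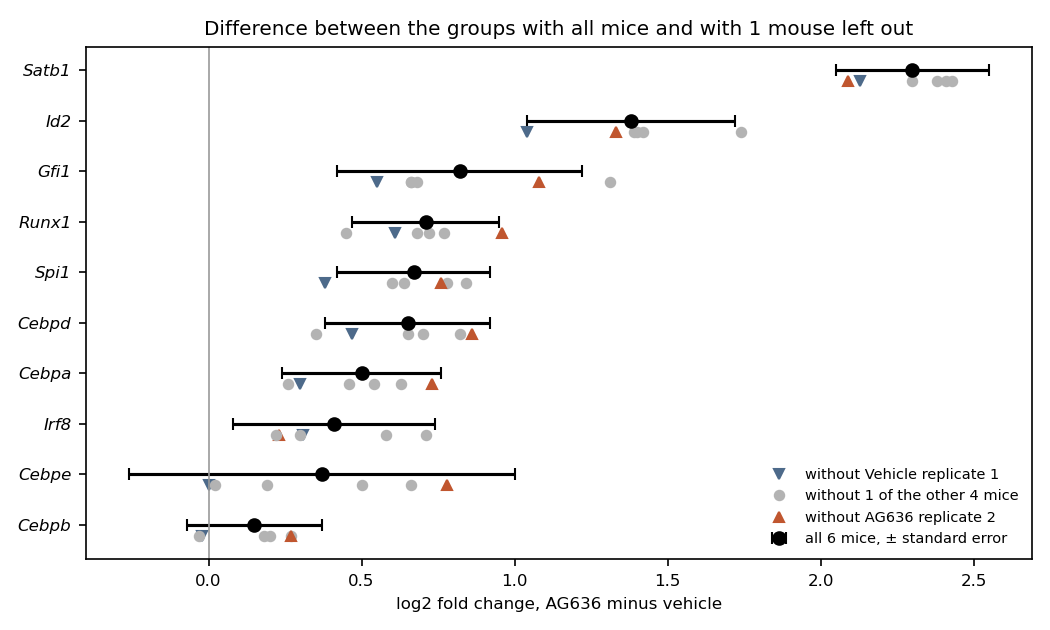
Log2 fold change of each of the 10 genes, AG636 minus vehicle (horizontal axis), with all 6 mice (black, with its standard error) and with 1 mouse left out (smaller symbols). Satb1 stays between 2.09 and 2.43 and Id2 between 1.04 and 1.74, while Cebpe ranges from 0.00 to 0.78 and Cebpb lies on both sides of 0.

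Over the 6 mice, Vehicle replicate 1 was the lowest library for 9 of the 10 genes, Irf8 being the exception. AG636 replicate 2 was the lowest treated library for 7 genes, Spi1, Cebpa, Cebpb, Cebpd, Cebpe, Gfi1 and Runx1, and the highest treated library for the other 3, Irf8, Id2 and Satb1. With both libraries left out, all 10 differences were positive, from 0.11 for Cebpb to 1.94 for Satb1, and Id2 was at 1.0 and Cebpe at 0.42. Summed mature neutrophil markers separated the groups, 179 to 248 CPM in vehicle and 392 to 677 CPM under AG636, and were highest in AG636 replicate 2, the treated mouse in which Cebpe was lowest. The summed monocyte and macrophage markers were 49.1 to 67.7 CPM in vehicle and 128 to 157 CPM under AG636; Cd68 alone had 19.4 to 33.7 and 66.9 to 91.2 CPM, and the rest of the list 29.7 to 36.2 and 37.0 to 70.3 CPM. How far cells of these types contributed to the differences in the 10 genes was not tested.

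**Figure D3:**
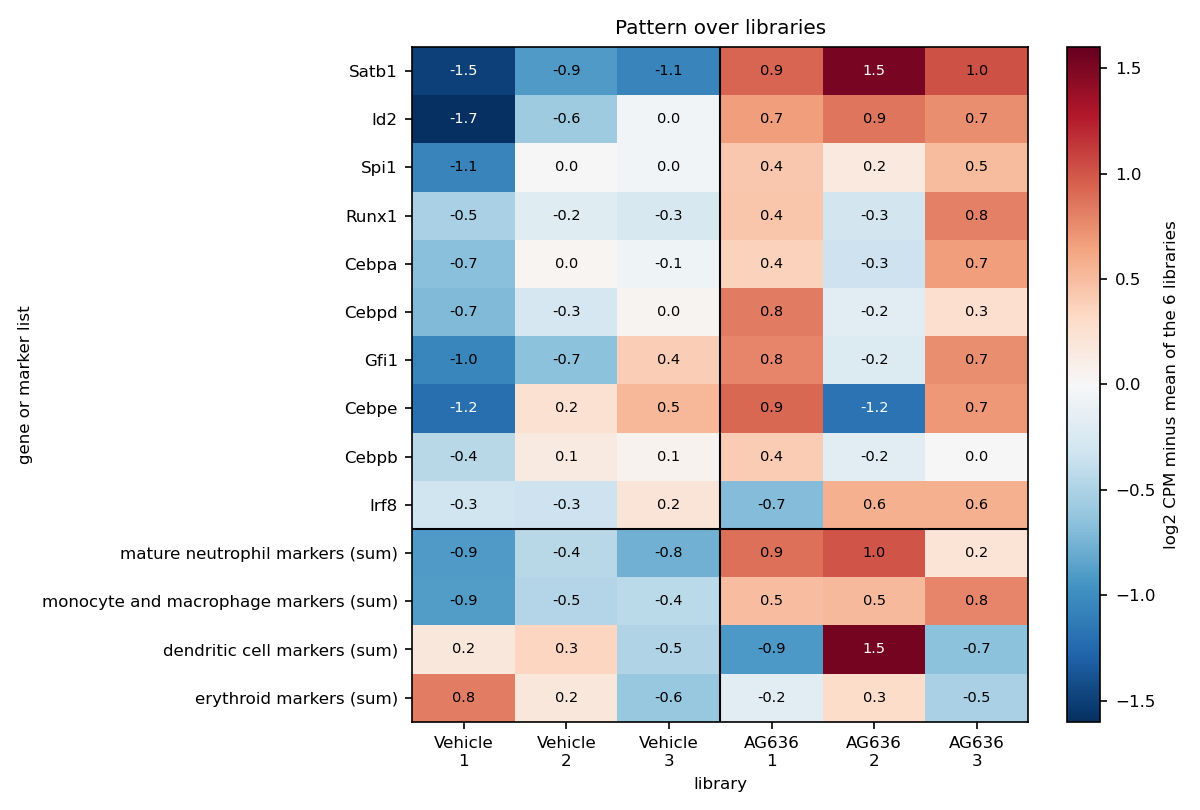
Log2 CPM of each of the 10 genes and of 4 summed marker lists in every library, minus the mean of the 6 libraries in that row (color and printed value). Vehicle replicate 1 is low for nearly all factors; AG636 replicate 2 is low for Cebpe but high for Satb1, Id2 and the neutrophil and dendritic cell markers, the last through 2 class II genes (245 of 278 CPM).

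The pair of factors most alike over the 6 mice was Cebpa and Runx1 (Pearson r = 0.95 of log2 CPM, n = 6 libraries), followed by Spi1 and Id2 (0.93), Cebpd and Gfi1 (0.92) and Id2 and Satb1 (0.90). Irf8 had no r above 0.46 with any of the others, and with Cebpb it was -0.37. Among 8461 genes with a mean of at least 10 CPM, the most alike to Satb1 were Scamp1 (0.996), Rb1cc1 (0.993) and Npc1 (0.993), and 564 genes had an r above 0.9 with it. For Irf8, 24 genes passed 0.9, led by Terf2 (0.983). The most alike to Cebpe were Anxa3 (0.991), Plppr3 (0.990) and Ms4a3 (0.990), the last a marker of granulocyte-monocyte progenitors, and to Gfi1 the most alike was Sirpa (0.999). These correlations share libraries and the group difference, and describe 6 points each.

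Relatives of the 10 genes did not move in 1 direction. Like the 10 genes, the lists of relatives, partners and other factors were drawn up with earlier results of these data known. Their calls are therefore a description. Of 19 family relatives 12 had enough counts to be tested, 4 were called higher and 2 lower, beside 10.2% higher and 11.1% lower over all genes tested, and their median log2 fold change was -0.03 against 0.03 over all genes. Runx2, a relative of Runx1 better known from bone, rose from 4.08 ± 0.935 to 9.28 ± 1.09 CPM (SD, n = 3; log2 fold change 1.18, adjusted p = 0.0175), whereas Runx3 was at -0.10 and was not called. Irf5, a regulator of inflammatory myeloid genes, rose by 0.98 on the log2 scale (adjusted p = 0.0124) and Irf2 rose by 0.58 (adjusted p = 0.0201). Id1, which like Id2 binds E proteins, rose from 26.1 ± 8.68 to 48.6 ± 6.70 CPM (log2 fold change 0.90, adjusted p = 0.0220). Gfi1b, the counterpart of Gfi1 in erythroid cells and megakaryocytes, fell from 61.1 ± 10.7 to 39.7 ± 3.26 CPM (log2 fold change -0.62, adjusted p = 0.0228), while the estimate for Gfi1 was positive. Cebpz, which despite its name encodes a nucleolar protein outside the bZIP family, fell from 205 ± 11.1 to 140 ± 8.63 CPM (log2 fold change -0.54, adjusted p = 0.0104). With 1 library left out Cebpz was called in all 6 fits, Id1 and Irf5 in 4, and Runx2, Irf2 and Gfi1b in 3; 3 of the list were called without Vehicle replicate 2, AG636 replicate 1 or AG636 replicate 3. Id4 had no count in any library.

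Of 22 partners and regulators, all tested, none was called higher and 3 lower, a share lower near the 11.1% of all genes, with a median log2 fold change of 0.08. Tcf3, which encodes the E proteins that ID2 and ID1 bind, fell from 160 ± 24.8 to 112 ± 3.55 CPM (log2 fold change -0.50, adjusted p = 0.0251); it was called in 3 of the 6 fits with 1 library left out. The E protein genes Tcf4 and Tcf12 were at 0.41 and 0.01 and were not called. Ddit3, which encodes CHOP, a C/EBP protein that pairs with other members of the family, fell from 49.5 ± 7.88 to 29.3 ± 0.620 CPM (log2 fold change -0.76, adjusted p = 0.0107). Atf4, its activator in the stress response, fell from 375 ± 18.6 to 203 ± 38.8 CPM (log2 fold change -0.88, adjusted p = 0.00392). Both were called in all 6 fits with 1 library left out. The RUNX partner Cbfb was at 0.42, the GFI1 corepressor genes Kdm1a and Rcor1 were at 0.22 and -0.11, and Trib1 and Trib2, which promote the loss of C/EBPα protein, were at 0.40 and -0.71, all without a call. For the list as a whole 5 genes were called without Vehicle replicate 3 or without AG636 replicate 2.

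**Figure D4:**
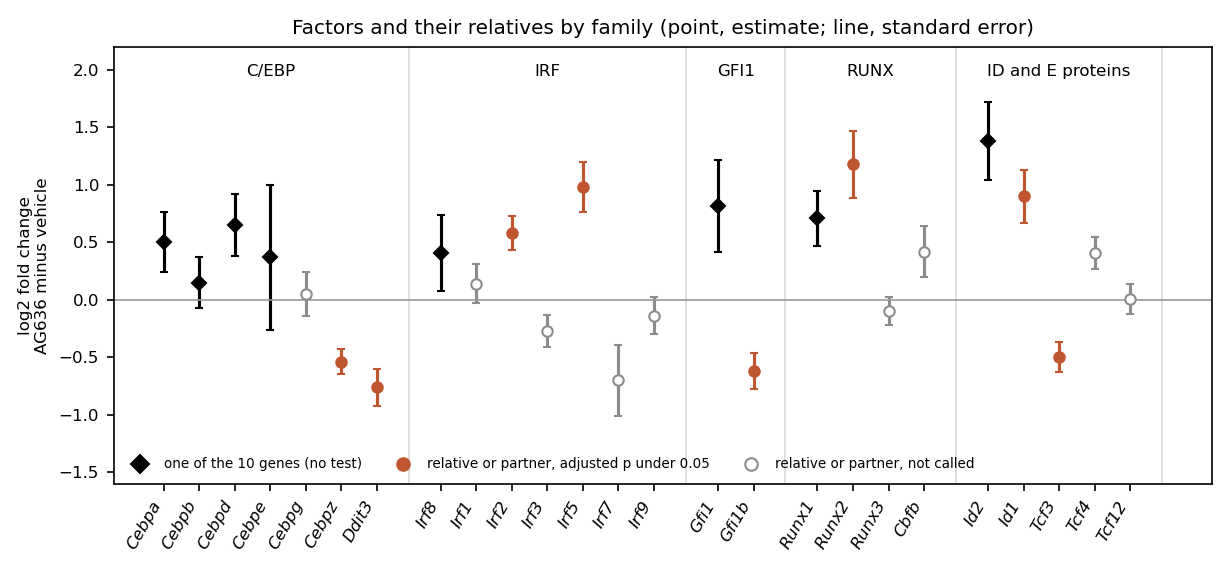
Log2 fold change, AG636 minus vehicle (vertical axis), with its standard error, for the factors (black diamonds, no test) and their relatives and partners by family (orange, adjusted p under 0.05; open gray, not called). Within families the estimates lie on both sides of 0: Gfi1 at 0.82 beside Gfi1b at -0.62, and Id2 at 1.38 and Id1 at 0.90 beside Tcf3 at -0.50.

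Of 53 other transcription factors of blood cells 40 were tested, 10 were called higher and 2 lower, beside 10.2% and 11.1% of all genes, and the median log2 fold change was 0.45. Of those called higher, the 4 with the lowest p were Gata2, a factor of stem, mast and early progenitor cells (178 ± 29.1 to 299 ± 35.0 CPM, log2 fold change 0.75, adjusted p = 0.00714), Meis1, a stem cell and leukemia factor (213 ± 48.7 to 430 ± 86.1 CPM, 1.01, adjusted p = 0.00743), Klf6 (1.11, adjusted p = 0.00779) and the cytokine signal transducer Stat3 (0.73, adjusted p = 0.0113). Those that fell were the erythroid factors Klf1 (log2 fold change -1.1, adjusted p = 0.0426) and Tal1 (-0.68, adjusted p = 0.0242). Gata2, Meis1 and Klf6 were called in all 6 fits with 1 library left out, Stat3 in 5, Klf1 in 3 and Tal1 in 2; the log2 fold change of Klf1 was -0.69 when Vehicle replicate 1 was left out. The list had 7 calls without Vehicle replicate 1, 4 without Vehicle replicate 2, 6 when AG636 replicate 1 was left out and 5 when AG636 replicate 3 was.

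Genes known as targets of these factors were then read in 3 lists, also drawn up with earlier results of these data known. Of 16 early myeloid targets, controlled by PU.1, C/EBPα and RUNX1, all were tested, 6 were called higher and none lower, beside 10.2% and 11.1% of all genes, and the median log2 fold change was 0.85. The receptor genes Csf2ra, Csf2rb and Il6ra rose by 1.15, 0.83 and 1.34 on the log2 scale (adjusted p = 0.0368, 0.0172 and 0.0127). Lyz2, Clec12a and Trem1 rose by 1.74, 1.49 and 1.1 (adjusted p = 0.0483, 0.0456 and 0.0405). The primary granule gene Mpo measured 1250, 2760 and 2760 CPM in vehicle and 2010, 615 and 1700 CPM under AG636, with AG636 replicate 2 the lowest of all 6 as for Cebpe among the treated mice, and was not called (log2 fold change -0.65). The primary granule genes Elane, Prtn3 and Ctsg were at 1.05, 0.41 and 0.34, also without a call and also lowest among the treated mice in AG636 replicate 2. Only Il6ra was called in all 6 fits with 1 library left out and Csf2rb in 5, with Csf2ra (0.76 without AG636 replicate 1) and Trem1 in 2 and Lyz2 and Clec12a in 1; Lyz2 was not called with RLE scaling (adjusted p = 0.0513), and limma-voom called neither Lyz2 (0.0730), Clec12a (0.0605) nor Csf2ra (0.0524). The list had 2 calls without Vehicle replicate 1, 3 without either of the other vehicle mice, 2 when AG636 replicate 1 was left out, 10 when AG636 replicate 2 was left out and 1 when AG636 replicate 3 was.

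Of 17 late granulocyte targets, the secondary and later granule genes that depend on C/EBPε or mark mature neutrophils, 16 were tested, 9 were called higher and none lower, beside the same shares, and the median log2 fold change was 1.22. Ngp, a neutrophil granule protein, measured 78.4, 103 and 76.2 CPM in vehicle and 319, 316 and 184 CPM under AG636 (log2 fold change 1.67, adjusted p = 0.00238). AG636 replicate 2, with 15 CPM of Cebpe, had as much Ngp as AG636 replicate 1, with 64.1 CPM of Cebpe. Some other genes of the list were higher in AG636 replicate 1 than in AG636 replicate 2. Among them were Lcn2 at 167 and 98.1 CPM, Cybb at 270 and 159 CPM and S100a9 at 2150 and 1130 CPM. Others were lower in AG636 replicate 1 than in AG636 replicate 2. Among these were Camp at 122 and 173 CPM, Mmp8 at 5.29 and 20.1 CPM and Mmp9 at 8.25 and 22.8 CPM. Chil3, Cybb and Cxcr2 rose by 1.83, 1.72 and 1.12 on the log2 scale (adjusted p = 0.00229, 0.00565 and 0.00306). Ngp, Chil3, Cybb and Cxcr2 were called in all 6 fits with 1 library left out. The list shares Ltf, Camp, Ngp, Ly6g, Cxcr2 and Mmp8 with the markers of mature neutrophils, so these counts do not separate the genes from the cells.

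Of 17 monocyte and dendritic targets, controlled by IRF8 and PU.1, 10 were tested, 4 were called higher and none lower, beside 10.2% and 11.1% of all genes, and the median log2 fold change of those tested was 0.87. Of the 7 with too few counts to test, Cd14, a receptor for bacterial lipopolysaccharide, was lower in every treated mouse (1.96 to 5.62 CPM in vehicle, 0.616 to 1.88 CPM under AG636), and Batf3 and Naaa had lower means with overlapping groups. Cst3 and Ctss rose by 0.61 and 1.36 on the log2 scale (adjusted p = 0.0116 and 0.0398), and Cybb, which is in this list too, by 1.72. Itgam, which encodes CD11b, rose from 19.1 ± 7.43 to 44.0 ± 14.6 CPM (log2 fold change 1.21, adjusted p = 0.0242). CD11b was a marker of the sort, as was cKit, and Kit measured 43.0, 31.7 and 40.8 CPM in vehicle and 46.1, 37.2 and 44.6 CPM under AG636 (log2 fold change 0.15, not called). Cd74, an MHC class II partner, was 95.7 CPM in AG636 replicate 2 and 12.3 to 37.3 CPM elsewhere. Cst3 was called in 5 of the 6 fits with 1 library left out, Itgam in 3 and Ctss in 2; Ctss was highest in AG636 replicate 2 (39.8 CPM), and its log2 fold change was 0.83 without that library and not called. The list had 1 call without Vehicle replicate 2 and 2 without AG636 replicate 3.

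**Figure D5:**
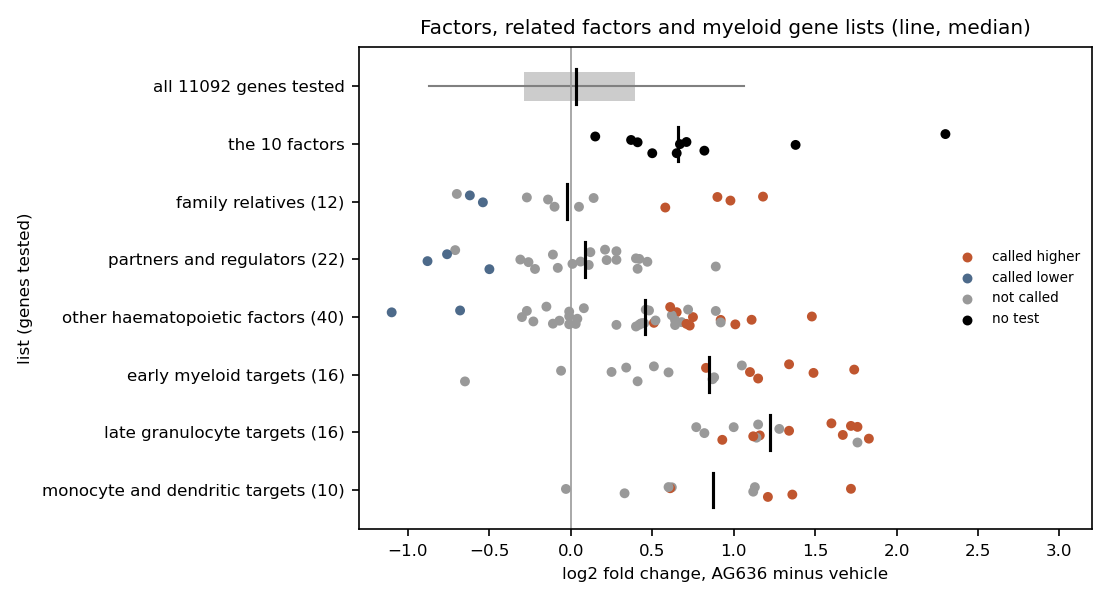
Log2 fold change, AG636 minus vehicle (horizontal axis), of all 11092 genes tested (box, 25th to 75th percentile; line, 5th to 95th), the 10 factors and the tested genes of 6 lists; points are genes and vertical lines medians. The 3 lists of targets have medians of 0.85, 1.22 and 0.87, the family relatives -0.03, and all genes 0.03.

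Of 10 monocyte and macrophage markers 7 were tested and 2 called higher, Cd68 (27.6 to 81.6 CPM, log2 fold change 1.57, adjusted p = 0.00216) and C1qb (2.98 to 11.0 CPM, 1.90, adjusted p = 0.0228), and of 8 mature neutrophil markers 6 were called higher. Of 8 dendritic cell markers 2 were called lower, Zbtb46 (log2 fold change -1.99, adjusted p = 0.0201) and Bst2 (-0.66, adjusted p = 0.0456), while Siglech and Cd209a were at or near 0. H2-Aa and H2-Ab1 were at 1.13 and 1.14 (standard errors 0.93 and 0.91), without a call. Flt3, also a progenitor marker, had too few counts to test. It was higher in every treated mouse, 0.522 to 0.833 CPM in vehicle and 1.69 to 4.31 CPM under AG636. Xcr1, also untested, had a lower mean with overlapping groups. Of 6 progenitor markers 1, Cd93, was called higher (0.78, adjusted p = 0.0277). Summed B cell markers were 16.9 to 32.9 CPM in vehicle and 32.8 to 48.5 CPM under AG636. Summed NK and innate lymphoid markers were 7.56 to 13.3 and 6.98 to 10.5 CPM. Mast cell and basophil markers summed to 426 to 774 and 584 to 1310 CPM, and megakaryocyte markers to 784 to 1220 and 1060 to 1720 CPM. Stromal and endothelial markers summed to 105 to 176 and 150 to 244 CPM, with Cdh5 and Lepr at 0. Nearly all of this sum was Pecam1, at 103 to 176 CPM in vehicle and 150 to 244 CPM under AG636. Col1a1, Col1a2 and Cxcl12 were each at or under 1.6 CPM in every library. Transcripts of several lineages were present in both groups, and the part of these markers in the values of the 10 factors was not tested.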

How the data were processed

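Libraries of 6 mice were made with the QuantSeq 3′ mRNA kit, so counts reflect transcript ends and are not corrected for length. The authors trimmed reads with cutadapt, mapped them to mm10 with HISAT2 (2.0.4 in the submitters' processing notes) and counted them per gene with featureCounts of Subread; the deposited values are these raw counts. The notes give cutadapt 1.9.1 and Subread 1.5.0-p3, and the study's methods name other versions of both; strand setting, multimapping and annotation release are not given in the sources used here. Gene symbols were taken from GENCODE vM21.

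Counts were analysed with edgeR 4.0.16 in R 4.3.3: genes were kept by filterByExpr (minimum count 10, minimum total 15), scaled by TMM and tested by the robust quasi-likelihood test over all genes, with Benjamini-Hochberg adjustment and a threshold of 0.05. CPM use the scaled library sizes; values are mean ± SD over 3 mice and fold changes have standard errors from the fit. limma 3.58.1 (voom) and DESeq2 1.42.0 were alternatives, with other scalings, filters, a replicate block and leaving out each library. The test was checked on simulated data. Replicates differed by more than sampling noise (chi-square per degree of freedom 6.67 to 15.9). The precision of a value is limited by 3 mice per group; an exact permutation test of 3 against 3 cannot go below p = 0.1.

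The 10 genes and all gene and marker lists were chosen with earlier results of these data known. Named from each list were the genes called, where 6 or fewer in a direction, or otherwise the 4 with the lowest p. Beyond that rule, Mpo, Elane, Prtn3, Ctsg, Lcn2, S100a9, Camp, Mmp8, Mmp9, Cd14, Batf3, Naaa and Cd74 were named after their values were seen. So were Runx3, Tcf4, Tcf12, Cbfb, Kdm1a, Rcor1, Trib1 and Trib2. Motifs were searched in RefSeq promoter sequences of GRCm38.p6. A second, overlapping table entry named Ddit3 held 0 counts and was not used.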

Additional observations from a re-analysis of the deposited data

How the results depend on the processing

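For the 10 factors, other scalings, filters and tests moved no log2 fold change by more than the spread between mice. These were RLE size factors, library size alone, a looser or stricter count filter, DESeq2, limma-voom and the replicate block. With 1 library left out that yardstick decides nothing, because dropping 1 of 3 mice can hardly move a difference beyond the spread. Such fits moved Cebpe from 0.37 to 0.00, Spi1 from 0.67 to 0.38 and Gfi1 from 0.82 to 1.31. Satb1 moved to 1.94 with Vehicle replicate 1 and AG636 replicate 2 both left out, an alternative chosen after seeing the data. Library size alone shifted the median of all genes to 0.12 from 0.03. At an adjusted p under 0.01 the calls were 269 higher and 375 lower over all genes, 0 family relatives, 1 partner, 3 other factors, 0 early, 5 late granulocyte and 1 monocyte and dendritic target. With no filter on low counts 6 partners, 19 other factors and 14 late targets were called, and with library size alone 5 partners. Early targets had 3 calls by limma-voom, 2 with the replicate block and 10 with both libraries left out. With 1 library left out, calls ranged from 449 to 1117 (higher) and 511 to 1299 (lower) over all genes, and per list from 3 to 6 (relatives), 2 to 5 (partners), 4 to 14 (other factors), 1 to 10 (early), 6 to 12 (late) and 1 to 5 (monocyte and dendritic). The cause of these moves was not tested, apart from the fewer libraries. The labels do not say whether the replicate numbers pair the mice. Correlations of deviations of same-numbered mice were -0.06, -0.18 and 0.22, and not every library correlated best with its own number. With 3 mice per group these values do not settle the question. The main fit used no pairing, and the block gave 942 higher and 1083 lower genes. Cebpb changed sign without Vehicle replicate 1 (-0.02) or AG636 replicate 1 (-0.03), and no called gene named from the lists did. Depth limits genes at few counts, such as Satb1 in the vehicle mice.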

Other observations

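The longest annotated coding transcript of each factor was compared with those of all genes tested for its content of pyrimidines, whose synthesis DHODH feeds. Uridine is given first, then uridine and cytidine together. Uridine made up 15.1% of Cebpe, 16.4% of Cebpb, 18.5% of Spi1 and 19.1% of Cebpa, against a median of 24.6% over all genes tested, and only 0.265% of genes had less than Cebpe. Satb1, Id2 and Runx1 were at 26.7%, 26.8% and 27.7%, above the median, and Gfi1, Irf8 and Cebpd lay between at 21.2%, 21.7% and 23.0%. Uridine and cytidine together gave another order, against a median of 49.3% over all genes tested. Cebpe was at 45.3%, Cebpd at 48.2%, Irf8 at 48.3%, Satb1 at 48.6% and Spi1 at 49.0%. Above the median were Gfi1 at 49.8%, Id2 at 49.9%, Cebpa at 50.5%, Cebpb at 52.0% and Runx1 at 52.6%. These are properties of the annotation, given for 10 genes without a test.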
